A study of Homo sapiens with 12 samples.

Results

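Dexamethasone (Dex), a synthetic glucocorticoid, was compared with its vehicle, dimethyl sulfoxide (DMSO), in HepG2, an established human hepatoma line labelled WT. The comparison used 6 of the 12 libraries of the study, 3 labelled Dex and 3 labelled DMSO, chosen by the treatment named in the labels. The Dex dose was 50 nM and the vehicle group received 0.1% DMSO. The labels give no DMSO percentage for the Dex group. All groups shared 24 h in medium with charcoal-stripped serum, which is depleted of steroids, before treatment, and RNA was taken 24 h after treatment. The other 6 libraries came from cells given KLA (labelled 100 ng/µl, a name the labels do not spell out) or Dex and KLA together (DexKLA). They show the same genes in samples that Dex versus DMSO did not compare. Nothing in the labels tells separate cultures from repeat libraries, so p-values measure only a library-to-library spread that may be technical.

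Glucocorticoids diffuse into the cell and bind the glucocorticoid receptor, which heat shock proteins and their co-chaperones hold in the cytoplasm. The bound receptor moves to the nucleus, where it activates genes through palindromic DNA elements and represses others, many of them inflammatory, often through other transcription factors. In liver cells the hormone is known for inducing gluconeogenic and amino acid breakdown enzymes, for acting with cytokines on acute-phase proteins, and for feedback on its own signal through FKBP5. HepG2 cells keep many secretory functions of hepatocytes and also express fetal liver genes such as AFP.

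The DMSO libraries held 3317740, 5277463 and 4409643 counts over genes and the Dex libraries 3642685, 17782057 and 4613811, so Dex replicate 2 was the deepest of the 6. On their first principal component, with 36.5% of the variance, DMSO replicate 1 stood apart at −33.8 against −7.64 and −9.54 for DMSO replicates 2 and 3, while the Dex libraries lay at 16.1 to 17.8. No replicate was a copy of another, since the chi-square over its degrees of freedom was 1.88 to 6.16 between replicates of these 2 groups. All 18 hepatocyte and hepatoma markers had counts. They summed to 117328 to 131147 counts per 1000000 counts over genes (CPM) over the DMSO libraries and 146613 to 152469 over the Dex libraries, most of it albumin (ALB) and AFP. Of 13 macrophage markers 8 had no count in the 6 libraries (CD163, MARCO, VSIG4, C1QA, C1QB, C1QC, TYROBP and PTPRC), and the list summed to 4024 to 4570.2 and 4009 to 4217 CPM, nearly all of it LYZ. Fibroblast and stellate markers summed to 48.7 to 55.2 and 42.8 to 43.4 CPM with 5 of 11 at 0 (COL1A2, DCN, LUM, THY1 and VIM), endothelial markers to 12.2 to 17.2 and 11.7 to 16.1 with 4 of 10 at 0 (KDR, CLEC4G, EMCN and TEK), and cholangiocyte markers, several of which hepatoma cells also express, to 888 to 921 and 787 to 836 with CFTR and MUC1 at 0.

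The receptor was expressed in every library. NR3C1, which encodes the glucocorticoid receptor (chromosome 5, 143277934 to 143403686, minus strand, hg38 as throughout), stood at 32.7, 29.1 and 36.7 CPM in DMSO replicates 1 to 3 and at 33.3, 20.8 and 29.9 CPM in Dex replicates 1 to 3. The groups overlapped, and the change was not called (log2 −0.28 ± 0.18 with its standard error, edgeR adjusted p = 0.382). Values in CPM below are scaled by the trimmed mean of M-values (TMM) and listed in the order of replicates 1 to 3. A gene was called at a Benjamini-Hochberg adjusted p under 0.05 in edgeR's quasi-likelihood test over 13166 genes. In bulk RNA, fewer cells that express a gene and less RNA per cell cannot be told apart.

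At the locus of FKBP5, a co-chaperone that lowers the affinity of the receptor for hormone, an adjoining noncoding transcript passed the test while FKBP5 itself did not. LOC285847 (chromosome 6, 35726762 to 35736947, minus strand) begins upstream of FKBP5 on the same strand and overlaps the 5′ end of its annotation. It had 0 counts in each DMSO library and 3.88, 1.66 and 1.76 CPM in the Dex libraries, 51 pooled counts. Against a floor of 3 counts over the whole DMSO group it was at least 8.49-fold higher with Dex (edgeR adjusted p = 0.00341). DESeq2 did not call it, and it was too low to enter a filter of 50 counts in 3 libraries. Genes not called by DESeq2 include those it leaves without an adjusted p, as it does for low mean counts. These 2 cases were not told apart. FKBP5 (chromosome 6, 35573585 to 35728583, minus strand) had 22.5, 25.3 and 29.2 CPM with DMSO and 37.7, 39.5 and 35.6 with Dex. All 3 Dex libraries lay above all 3 DMSO libraries, and 28% of all tested genes had groups that did not overlap. The FKBP5 change was not called (log2 0.55 ± 0.17, edgeR adjusted p = 0.0857). In DexKLA versus KLA both were called, FKBP5 with log2 1.04 ± 0.16 (edgeR adjusted p = 0.000869) and LOC285847 with 25 against 8 pooled counts, a ratio of 6.86 with a 95% counting interval of 3.00 to 17.6.

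TSC22D3, an anti-inflammatory leucine zipper protein, held 3 counts in each DMSO library and 5 to 22 in the Dex libraries (0.904, 0.568 and 0.68 CPM on plain library totals with DMSO, 1.65, 1.24 and 1.08 with Dex) and was too low to test. KLF9, a Krüppel-like transcription factor, had 15.8, 18.7 and 18.3 CPM with DMSO and 28, 24.8 and 22.9 with Dex. ERRFI1, an inhibitor of the EGF receptor, had 165, 155 and 178 CPM with DMSO and 253, 202 and 241 with Dex. Neither pair of groups overlapped, a pattern that 28% of all tested genes showed. Neither KLF9 (log2 0.50 ± 0.14, edgeR adjusted p = 0.0637) nor ERRFI1 (0.48 ± 0.14, 0.0609) was called by edgeR. DESeq2 called FKBP5, KLF9 and ERRFI1, and edgeR called all 3 when KLA replicate 3 or DexKLA replicate 3 was left out. In DexKLA versus KLA, KLF9 and ERRFI1 were called (log2 0.94 ± 0.13 and 0.79 ± 0.13). The clock gene PER1 (log2 0.30 ± 0.20, edgeR adjusted p = 0.395), the amino acid catabolic enzyme gene TAT (0.53 ± 0.24, 0.224) and ANGPTL4, an inhibitor of lipoprotein lipase (0.44 ± 0.30, 0.416), were not called in either comparison.

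Over all genes, 270 of 13166 (2.05%) passed in Dex versus DMSO, of which 160 were higher (1.22%) and 110 lower (0.835%). Their median absolute log2 change was 0.63, and 26 rose and 9 fell by over 2-fold. In 269 of the 270 the 3 Dex libraries did not overlap the 3 DMSO libraries, a pattern that 28% of all tested genes showed. The count depended on single libraries. Leaving out DMSO replicate 1, 2 or 3 gave 60, 121 or 94 calls, and leaving out Dex replicate 2 or 3 gave 57 or 67. There were 22 without DMSO replicate 1 and Dex replicate 2 together. KLA replicate 3 and DexKLA replicate 3, which enter through the shared estimate of spread, moved it to 913 and 716 when left out. Counts for gene lists below are read against the shares of all 13166 genes. At an unadjusted edgeR p under 0.05, 1357 of all genes were higher and 1326 lower, and DESeq2 called 414 higher and 236 lower.

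**Figure D1:**
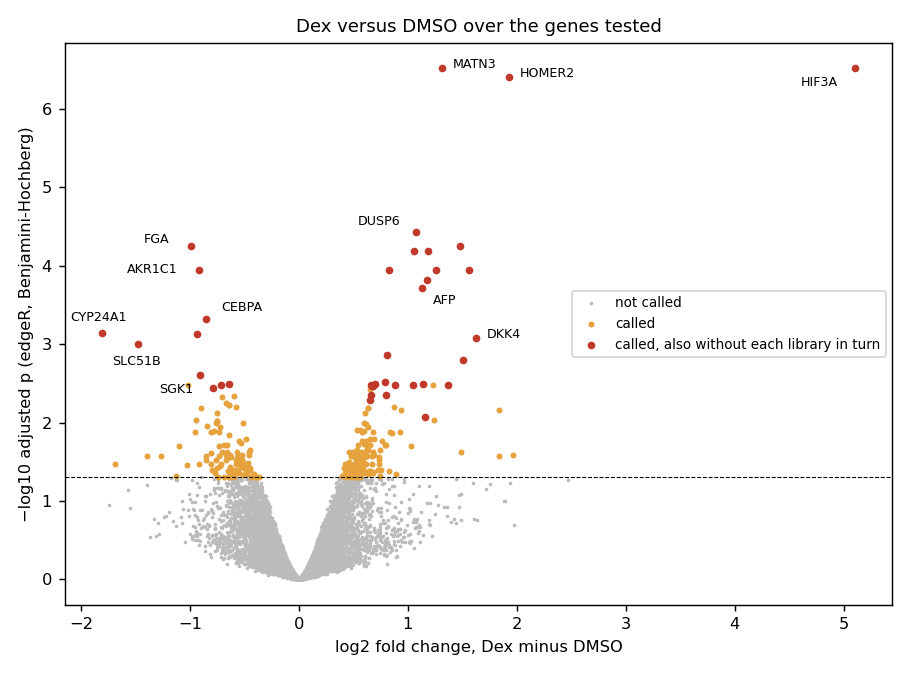
Each point is a tested gene (LOC285847, with no count in DMSO, is not drawn). The x axis gives the log2 fold change of Dex minus DMSO and the y axis −log10 of the edgeR adjusted p, with the dashed line at 0.05. HIF3A, HOMER2 and MATN3 lie highest, and the falls of CYP24A1 and SLC51B are the farthest left among the genes called without each library in turn.

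The results below turn on 39 genes (0.296% of those tested) that were called in the fit to all libraries and in each of the 12 fits that left out 1 library. Of these, 29 were higher and 10 lower, and 18 rises and 2 falls exceeded 2-fold. They were selected by their change in Dex versus DMSO, so their folds and p-values there describe them and are not an independent check. Of the 29 higher genes, 17 were still called without DMSO replicate 1 and Dex replicate 2 together, as were 3 of the 10 lower ones.

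**Figure D2:**
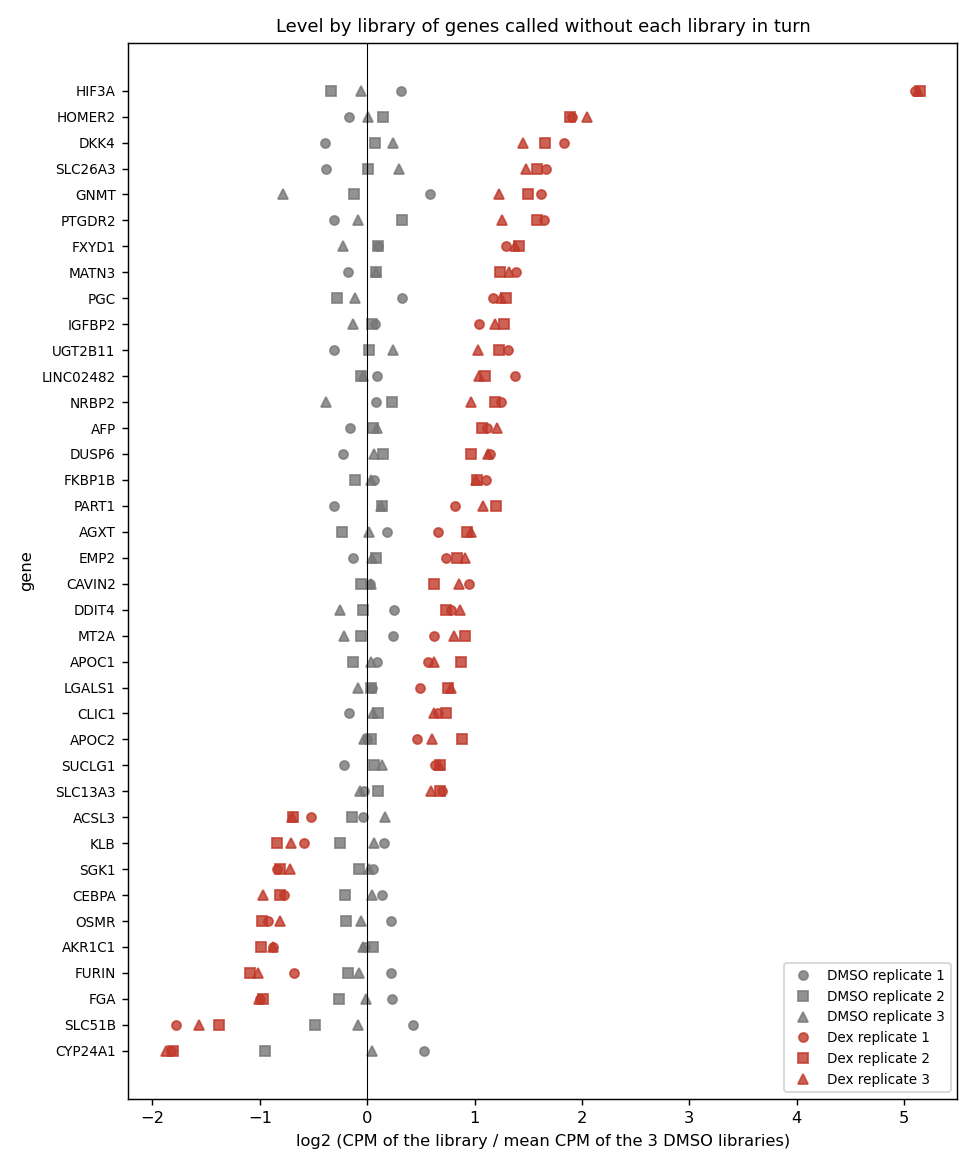
Level of each of 38 genes in the 6 libraries, as log2 of the library's CPM over the mean CPM of the 3 DMSO libraries (LOC285847, at 0 in DMSO, cannot be drawn). Grey symbols are DMSO and red symbols Dex, with 1 symbol shape per replicate. The groups do not overlap in any row, as in 269 of the 270 called genes. HIF3A lies above 5 in each Dex library, and CYP24A1 shows the widest spread among the DMSO libraries of the falling genes.

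The receptor's palindromic element is commonly written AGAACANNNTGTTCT, where N is any base, and this pattern was searched on both strands from 250 bases before to 50 bases after the annotated start of each gene. A RefSeq window (GRCh38.p14) whose start lay within 50 bases of the counted transcript was found for 7835 of the 13166 tested genes. A match with at most 3 mismatches in the 12 fixed bases was present in 5.36% of these windows, in 5.94% of the 101 windows of genes called higher and in 1.61% of the 62 of genes called lower. It was found in 4 of 21 windows of the higher and 1 of 7 of the lower genes among the 39. No window of a called gene held a match with at most 2 mismatches, against 0.536% of all windows. The half-site AGAACA was in 8.18% of all windows, 11.9% of the called higher and 4.84% of the called lower. The 5 sites among the 39 genes are printed because they belong to the genes whose change did not depend on 1 library. Capitals mark the 15-base match, each with 3 mismatches, and the strand is that of the gene.
AFP: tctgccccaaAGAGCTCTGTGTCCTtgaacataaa
CAVIN2: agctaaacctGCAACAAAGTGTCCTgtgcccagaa
DUSP6: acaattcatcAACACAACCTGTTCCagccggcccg
PART1: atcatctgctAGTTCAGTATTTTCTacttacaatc
AKR1C1: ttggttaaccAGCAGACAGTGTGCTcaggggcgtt
These stretches lie at chr4:73436034-73436068 (plus strand), chr2:191847204-191847238 (minus), chr12:89352582-89352616 (minus), chr5:60487844-60487878 (plus) and chr10:4963339-4963373 (plus), in the 5′ flank, and the matches begin 177, 140, 105, 78 and 66 bases before the gene start in the same order. A match in these letters is a description and not a measured binding site.

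HIF3A, a member of the hypoxia-inducible factor family whose isoforms can oppose the others (chromosome 19, 46303619 to 46343433, plus strand), rose from near absence. Its level was 0.282, 0.179 and 0.218 CPM with DMSO, 1 count in each library, and 7.76, 8.03 and 7.92 CPM with Dex. The ratio of pooled counts, 204 against 3, was 34.0 with a 95% counting interval of 11.5 to 166. DESeq2 did not call HIF3A, which, as above, can mean that it gave no adjusted p. Among all tested genes 1.22% were called higher and 0.835% lower. Of 35 tested genes of hypoxia and glycolysis, 2 were called higher (HIF3A and BNIP3, a mitophagy receptor, log2 0.69 ± 0.15, edgeR adjusted p = 0.0162) and 0 lower, with a median of 0.04 against −0.01 for all genes. At an unadjusted edgeR p under 0.05, 9 were higher and 2 lower, against 1357 and 1326 of all 13166 genes. DESeq2 called 3 higher and 0 lower. The call of BNIP3 was lost without DMSO replicates 1 or 2 or Dex replicates 2 or 3.

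HOMER2, a synaptic-type scaffold that clusters calcium signalling proteins (chromosome 15, 82848984 to 82952720, minus strand), had 6.19, 7.71 and 6.98 CPM with DMSO and 26.1, 25.8 and 28.8 with Dex. The Dex libraries were alike and each lay far above the highest DMSO library (log2 1.93 ± 0.17, edgeR adjusted p = 3.91e-07). MATN3, a matrix protein of cartilage (chromosome 2, 19992052 to 20012668, minus strand), had 124, 149 and 149 CPM with DMSO and 367, 333 and 352 with Dex (log2 1.31 ± 0.11, edgeR adjusted p = 3.01e-07). PTGDR2, a receptor for prostaglandin D2 (chromosome 11, 60850933 to 60855950, minus strand), went from 7.88, 12.2 and 9.17 CPM with DMSO to 30.5, 29.1 and 23.3 with Dex, with CCDC86 annotated on the opposite strand. SLC26A3, a chloride and bicarbonate exchanger (chromosome 7, 107765467 to 107803233, minus strand), went from 7.88, 10.4 and 12.7 CPM with DMSO to 32.7, 30.8 and 28.8 with Dex. Their log2 changes were 1.48 ± 0.18 (edgeR adjusted p = 5.66e-05) and 1.56 ± 0.20 (0.000112).

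DUSP6, which dephosphorylates and so inactivates ERK kinases (chromosome 12, 89347237 to 89352501, minus strand), had 104, 134 and 127 CPM with DMSO and 268, 238 and 264 with Dex (log2 1.07 ± 0.12, edgeR adjusted p = 3.74e-05). The antisense gene AC024909.2 overlaps 40% of its exon bases on the opposite strand. DKK4, a secreted antagonist of Wnt (chromosome 8, 42374063 to 42377229, minus strand), had 6.76, 9.33 and 10.5 CPM with DMSO and 31.6, 27.9 and 24.2 with Dex (1.63 ± 0.25, 0.000828). DDIT4, an inhibitor of the growth kinase mTORC1 (chromosome 10, 72273924 to 72276036, plus strand), had 97.7, 79.8 and 69 CPM with DMSO and 141, 137 and 150 with Dex (0.80 ± 0.14, 0.00444), with DDIT4-AS1 on the opposite strand. IGFBP2, which binds insulin-like growth factors (chromosome 2, 216633420 to 216664435, plus strand), had 20.8, 20.5 and 18.1 CPM with DMSO and 40.8, 48 and 45.3 with Dex (1.19 ± 0.14, 6.44e-05). In each of these 4 genes the groups did not overlap, as in 269 of the 270 called genes and 28% of all tested genes. The lists that hold these 4 genes are read against 2.05% called among all tested genes, and their calls went both ways. Of 30 tested genes of ERK feedback and early response, 1 was called higher (DUSP6) and 1 lower (AREG, a ligand of the EGF receptor, log2 −1.26 ± 0.29, edgeR adjusted p = 0.0271), with a list median of −0.13. Of 25 genes of the insulin and IGF axis, 1 was higher (IGFBP2) and 2 lower (SGK1 and PIK3R1), with a median of −0.26. Of 29 genes of Wnt, activin and TGF-beta signalling, 2 were higher (DKK4 and FSTL3) and 3 lower (LGR5, SMAD3 and FST), with a median of −0.09.

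Among the activin antagonists, FST and FSTL3 went opposite ways. FST, follistatin, fell from 411, 413 and 482 CPM with DMSO to 285, 259.7 and 278 with Dex (log2 −0.67 ± 0.12, edgeR adjusted p = 0.00569), and FSTL3, a related secreted inhibitor, rose from 34.9, 21.5 and 24.9 CPM with DMSO to 40.5, 39.9 and 47.5 with Dex (0.67 ± 0.16, 0.034). The FST call was lost without Dex replicate 2, and the FSTL3 call without any 1 of 4 libraries, among them DMSO replicate 2. In DexKLA versus KLA both were called in the same directions (FST −0.61, edgeR adjusted p = 0.0131; FSTL3 0.69, 0.024).

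CAVIN2, a coat protein of caveolae (chromosome 2, 191834310 to 191847088, minus strand), went from 41.1, 38.8 and 41.3 CPM with DMSO to 78.2, 62 and 73.2 with Dex (log2 0.81 ± 0.13, edgeR adjusted p = 0.00139). EMP2, a tetraspan membrane protein (chromosome 16, 10528422 to 10580598, minus strand), went from 94.3, 109 and 107 CPM with DMSO to 172, 184 and 194 with Dex (0.83 ± 0.11, 0.000112). CAVIN1, another caveolar coat protein, was not called (log2 −0.05, edgeR adjusted p = 0.837). MT2A, a metallothionein that binds zinc and that glucocorticoids induce (chromosome 16, 56608584 to 56609497, plus strand), went from 133, 108 and 97.4 CPM with DMSO to 174, 212 and 198 with Dex (0.79 ± 0.13, 0.00303). FKBP1B, an immunophilin that binds calcium release channels (chromosome 2, 24049741 to 24063680, plus strand), went from 32.1, 28.3 and 31.4 CPM with DMSO to 66, 62.3 and 62 with Dex (1.05 ± 0.13, 6.44e-05), with MFSD2B on the same strand. The transcript counted for FKBP1B is a noncoding RefSeq record of the gene. Of these, MT2A was no longer called once the trend on transcript length described below was removed (log2 0.47, edgeR adjusted p = 0.0707). The metallothioneins MT1E (0.42, edgeR adjusted p = 0.12) and MT1X (0.20, 0.508) were not called. NRBP2, a pseudokinase (chromosome 8, 143833584 to 143840973, minus strand), went from 8.45, 9.33 and 6.11 CPM with DMSO to 18.9, 18.2 and 15.6 with Dex (1.14 ± 0.19, 0.00324).

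AFP, alpha-fetoprotein (chromosome 4, 73436221 to 73456174, plus strand), had 13699, 15822 and 16286 CPM with DMSO and 33139.7, 31956 and 35398 with Dex, with each Dex library far above each DMSO library (log2 1.13 ± 0.15, a 2.19-fold rise, edgeR adjusted p = 0.00019). ALB, its neighbour in the albumin family, went from 66436 ± 8318 to 82177 ± 2574 CPM (mean ± SD, n = 3) and was not called (log2 0.31 ± 0.15, edgeR adjusted p = 0.261). PGC, the pepsinogen C (chromosome 6, 41736711 to 41747397, minus strand), went from 69.8, 45.9 and 51.7 CPM with DMSO to 126, 137 and 132 with Dex (log2 1.26 ± 0.16, edgeR adjusted p = 0.000112). LGALS1, a galectin (chromosome 22, 37675636 to 37679802, plus strand), went from 122, 121 and 111 CPM with DMSO to 166, 198 and 202 with Dex (0.68 ± 0.12, 0.00341) and lost its call with the length trend removed.

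On chromosome 19 a run of 3 adjacent genes rose, all of them with little or moderate expression. FXYD1, phospholemman, a regulator of the sodium pump (chromosome 19, 35138824 to 35143109, plus strand), had 18.6, 18.7 and 14.8 CPM with DMSO and 42.7, 46.2 and 45.1 with Dex (log2 1.37 ± 0.24, edgeR adjusted p = 0.00336). Other annotated genes overlap 24% of its exon bases on the opposite strand and 26% on the same strand. LGI4, a secreted glial protein (chromosome 19, 35124513 to 35135059, minus strand), had 1.13, 2.15 and 2.18 CPM with DMSO and 6.1, 6.71 and 7.48 with Dex (1.84 ± 0.35, 0.00692). FXYD3, another pump regulator (chromosome 19, 35115823 to 35124324, plus strand), had 1.41, 1.26 and 0.873 CPM with DMSO and 2.77, 4.93 and 3.96 with Dex (1.84 ± 0.43, 0.0271). Only FXYD1 was called without each library in turn. LGI4 was lost without DMSO replicate 1, and FXYD3 without any 1 of 5 libraries. Flanking genes did not pass the test: HPN had 153 ± 8.33 and 174 ± 3.32 CPM (log2 0.19, edgeR adjusted p = 0.4), and LSR 94.3 ± 9.06 and 80.8 ± 10.4 (−0.21, 0.334). HAMP, the iron hormone hepcidin at the far end of the same interval, had 9.11 ± 1.44 and 3.95 ± 0.551 CPM (−1.13, 0.054).

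The apolipoprotein cluster, also on chromosome 19, held 4 called genes. APOC1 (chromosome 19, 44914325 to 44919344, plus strand), which sits on lipoproteins and inhibits their uptake, had 249.7, 213 and 239 CPM with DMSO and 348, 428 and 361 with Dex (log2 0.70 ± 0.12, edgeR adjusted p = 0.00324). AC011481.3 overlaps 43% of its exon bases on the same strand. APOC2, the cofactor of lipoprotein lipase (chromosome 19, 44946051 to 44949565, plus strand), had 261, 267 and 256 CPM with DMSO and 361, 482 and 396 with Dex (0.66 ± 0.12, 0.00336). It shares exons with the readthrough gene APOC4-APOC2 (0.65, 0.00372), so these are not separate measurements. APOE, the ligand of lipoprotein receptors, had 2639, 2467 and 2431 CPM with DMSO and 3398, 4108 and 3423 with Dex (0.54 ± 0.12, 0.0223). In APOC1 and APOC2 the highest value was in Dex replicate 2. The neighbours TOMM40 (0.05, edgeR adjusted p = 0.858) and CLPTM1 (−0.15, 0.464) were not called. Of 20 tested apolipoprotein and lipoprotein assembly genes 3 were called higher and 0 lower, against 1.22% and 0.835% of all tested genes. The list median was 0.23. At an unadjusted edgeR p under 0.05 there were 7 higher and 3 lower, against 1357 and 1326 of all 13166 genes. DESeq2 called 5 higher and 1 lower. With the length trend removed the median was 0.03, and APOE was lost.

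GNMT, which uses S-adenosylmethionine to methylate glycine (chromosome 6, 42960754 to 42963880, plus strand), had 7.32, 4.49 and 2.84 CPM with DMSO and 15, 13.8 and 11.4 with Dex (log2 1.5 ± 0.24, edgeR adjusted p = 0.00159). PEX6 lies on the opposite strand, and the DMSO values of GNMT were spread over more than 2-fold. DESeq2 did not call GNMT, which, as above, can mean that it gave no adjusted p. AGXT, which detoxifies glyoxylate in peroxisomes (chromosome 2, 240868824 to 240880500, plus strand), had 25.9, 19.4 and 23.1 CPM with DMSO and 36, 43.5 and 44.6 with Dex (0.88 ± 0.15, 0.00336). SUCLG1, a subunit of a citric acid cycle enzyme (chromosome 2, 84423528 to 84459280, minus strand), had 121, 147 and 155 CPM with DMSO and 218, 226 and 223 with Dex (0.66 ± 0.12, 0.00444). SLC13A3, which imports dicarboxylates (chromosome 20, 46557828 to 46651459, minus strand), had 41.7, 45.6 and 40.6 CPM with DMSO and 69, 68.1 and 64.2 with Dex (0.65 ± 0.12, 0.0051). CLIC1, a chloride intracellular channel protein with 7 annotated loci (chromosome 6, 31730581 to 31736564, minus strand for the first), had 1149, 1384 and 1342 CPM with DMSO and 2041, 2144 and 1990.03 with Dex (0.67 ± 0.12, 0.00342). In all 5 the groups did not overlap, as in 269 of the 270 called genes and 28% of all tested genes.

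Of 28 tested genes of gluconeogenesis and amino acid breakdown, 1 was called higher (GNMT) and 1 lower (PCK1), against 2.05% called in either direction among all genes, with a list median of 0.07 and 19 members above 0. PCK1, the rate-limiting enzyme of gluconeogenesis and a textbook glucocorticoid target (chromosome 20, 57561110 to 57568121, plus strand), had 74.3, 40.9 and 53.5 CPM with DMSO and 30.5, 23.6 and 34.1 with Dex. Every Dex library lay below every DMSO library (log2 −0.96 ± 0.20, edgeR adjusted p = 0.0134). Its call was lost without DMSO replicate 1, the highest, and without Dex replicate 2, the lowest. G6PC, the last step of glucose release, was not called (log2 −0.24, edgeR adjusted p = 0.481).

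Of 28 tested genes of drug and steroid metabolism, 3 were called higher and 5 lower, against 1.22% and 0.835% of all tested genes. UGT2B11, which glucuronidates steroids and fatty acids (chromosome 4, 69199951 to 69214748, minus strand), rose from 16.9, 21.2 and 24.7 CPM with DMSO to 51.8, 48.9 and 42.7 with Dex (log2 1.18 ± 0.16, edgeR adjusted p = 0.000152), with a noncoding gene on the opposite strand. The related UGT2B10 (0.45, 0.127), UGT2B7 (0.35, 0.208) and UGT2B4 (0.31, 0.335) on the same chromosome were not called. Their sequences are similar, so reads may be split among them. LOC105377267, whose span covers UGT2B11 on the opposite strand, was not called with Dex alone (0.82, edgeR adjusted p = 0.0532). It was called in DexKLA versus KLA (1.03, edgeR adjusted p = 0.0021). Library strand is not given, so reads of UGT2B11 may be shared with it. CYP3A5, a drug-oxidising enzyme, rose from 6.19, 6.1 and 7.86 CPM with DMSO to 15, 16.6 and 12.3 with Dex (1.15 ± 0.20, 0.00324), and lost its call without Dex replicate 2. Its counted transcript is also a noncoding record. CYP3A7, its fetal relative, rose by 0.60 (edgeR adjusted p = 0.034), while CYP3A4 was not called (0.55, 0.621).

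The largest fall among all called genes was in this list. CYP24A1, which inactivates vitamin D (chromosome 20, 54153446 to 54173986, minus strand), had 57.2, 20.5 and 40.8 CPM with DMSO and 11.1, 11.2 and 10.8 with Dex. The DMSO libraries were spread over more than 2-fold, with replicate 1 highest, and the Dex libraries were nearly equal (log2 −1.80 ± 0.27, edgeR adjusted p = 0.000727). AKR1C1, which inactivates progesterone (chromosome 10, 4963415 to 4983282, plus strand), had 624, 657 and 618 CPM with DMSO and 344, 319 and 344 with Dex, 2 tight groups (−0.92 ± 0.12, 0.000112). Its close copy AKR1C2 fell too (−0.53, 0.0181), and AKR1C3 was not called (0.28, 0.204). Reads may be shared among these near-identical genes. CYP1A1 (−0.75, 0.00959), the classical target of the aryl hydrocarbon receptor, and ALDH1A1 (−0.40, 0.0489), a retinal dehydrogenase, were lower as well. CYP3A7, AKR1C2, CYP1A1 and ALDH1A1 are named as the remaining called members of the list, outside the naming rule, as are MAOA, LGR5, ELOVL5 and members or neighbours that did not pass, all after their values were seen.

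SLC51B, a subunit of the basolateral bile acid exporter (chromosome 15, 65045387 to 65053397, plus strand), had 28.2, 14.9 and 19.6 CPM with DMSO and 6.1, 8.03 and 7.04 with Dex (log2 −1.48 ± 0.23, edgeR adjusted p = 0.000985). KLB, the co-receptor for the hormones FGF19 and FGF21 (chromosome 4, 39406930 to 39451533, plus strand), had 216, 163 and 203 CPM with DMSO and 129, 108 and 119 with Dex (−0.71 ± 0.12, 0.00336). NR1H4, the bile acid receptor FXR that activates SLC51B, had 47.3, 41.6 and 47.1 CPM with DMSO and 28.3, 28.7 and 28.6 with Dex (−0.66 ± 0.15, 0.0262), a call lost without any 1 of 4 libraries. BAAT, which conjugates bile acids to amino acids, rose from 24.8, 21.9 and 29.2 CPM with DMSO to 41, 39.6 and 41.8 with Dex (0.69 ± 0.16, 0.0257), also lost without any 1 of 4 libraries. CYP7A1, the rate-limiting enzyme of bile acid synthesis, stood at 3.89 ± 1.26 and 7.74 ± 1.03 CPM (n = 3) and missed the threshold (0.96, 0.0532). Over the list, 1 of 18 tested genes was called higher and 3 lower, with a median of −0.19. Among all tested genes 1.22% were called higher and 0.835% lower.

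Genes of 2 fibrinogen chains and 2 other acute-phase plasma proteins fell. FGA, the alpha chain of fibrinogen (chromosome 4, 154585275 to 154590742, minus strand), had 2209.7, 1575 and 1877 CPM with DMSO and 943, 965 and 936 with Dex. The Dex libraries differed by little, and the lowest DMSO library, replicate 2, was well above them (log2 −0.99 ± 0.12, a 1.99-fold fall, edgeR adjusted p = 5.66e-05). FGB, the beta chain, had 1422, 1151 and 1464 CPM with DMSO and 904, 913 and 882 with Dex (−0.58 ± 0.11, 0.00635), and FGG, the gamma chain, had 3299 ± 373 and 2464 ± 40.8 CPM (mean ± SD, n = 3) and missed the threshold (−0.42, 0.0544). A2M, a protease inhibitor (−0.57 ± 0.13, edgeR adjusted p = 0.0239), and RBP4, the retinol carrier (−0.42 ± 0.11, 0.045), were the other called members. Of 22 tested acute-phase genes 0 were called higher and 4 lower, against 1.22% and 0.835% of all tested genes. The list median was −0.14. At an unadjusted edgeR p under 0.05 there were 1 higher and 9 lower, against 1357 and 1326 of all 13166 genes. DESeq2 called 0 and 6. With the length trend removed the median was −0.30 and 7 were lower. Only FGA was called without each library in turn.

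Coagulation and complement genes moved both ways, 2 of 39 called higher and 2 lower, against 1.22% and 0.835% of all tested genes. The list median was −0.07. CPB2, an inhibitor of clot lysis, rose from 98, 115 and 127 CPM with DMSO to 169, 181 and 181 with Dex (log2 0.64 ± 0.12, edgeR adjusted p = 0.00646), and TFPI, the inhibitor of the tissue factor pathway, rose by 0.59 (0.0271). MBL2, a lectin that starts a complement pathway, fell from 34.6, 24 and 34.5 CPM with DMSO to 15.8, 13.1 and 18 with Dex (−1.02 ± 0.18, 0.00336), and KNG1, kininogen, went from 25.3, 14.7 and 28.4 to 15, 10.9 and 11 (−0.92 ± 0.22, 0.034). KNG1 was the only called gene whose groups overlapped. The call of CPB2 was lost without DMSO replicate 1 and that of MBL2 without Dex replicate 2. TFPI lost its call without DMSO replicate 1 or 3 or any 1 Dex library. KNG1 lost its call without DMSO replicate 1 or 3 or Dex replicate 2 or 3. The KNG1 call was also lost with voom, with the replicate block and with the length trend removed (edgeR adjusted p = 0.0555).

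OSMR, a receptor subunit for oncostatin M (chromosome 5, 38846012 to 38935641, plus strand), had 78.3, 58.8 and 64.6 CPM with DMSO and 35.5, 34.1 and 38.3 with Dex (log2 −0.90 ± 0.15, edgeR adjusted p = 0.00248). IL1R1, the interleukin-1 receptor, had 45.6, 36.2 and 40.6 CPM with DMSO and 21.6, 20.2 and 24.4 with Dex (−0.90 ± 0.17, 0.00646), lost without DMSO replicate 1 or Dex replicate 2. It was the 1 called member of 22 tested NF-kB and cytokine genes, whose median was −0.16, against 2.05% called among all tested genes. CEBPA, a transcription factor central to hepatocyte identity (chromosome 19, 33299934 to 33302564, minus strand), had 372, 292 and 347 CPM with DMSO and 197, 191 and 172 with Dex (−0.85 ± 0.12, 0.000471), and its relative CEBPD (chromosome 8, 47736913 to 47738164, minus strand) went the other way, from 27.9, 24 and 26 CPM with DMSO to 49.3, 42 and 40.9 with Dex (0.76 ± 0.16, 0.0175). CEBPB, the third of the family often named with them, was not called (−0.32, 0.164). CEBPA has antisense genes on the opposite strand, and the sources used here do not give the strand of the libraries. The CEBPD call was lost without any 1 of 4 libraries and with the length trend removed. Of 22 liver-enriched factors, these 2 were the only called ones, against 2.05% of all tested genes. HNF4A stood at −0.18 (edgeR adjusted p = 0.346).

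SGK1, a kinase of ion transport that glucocorticoids induce in many tissues (chromosome 6, 134169256 to 134174866, minus strand), was lower with Dex. Its level was 44.5, 40.5 and 43.2 CPM with DMSO and 23.8, 24.4 and 26 with Dex, 2 groups far apart for their spread (log2 −0.79 ± 0.14, edgeR adjusted p = 0.00359). Among all tested genes 1.22% were called higher and 0.835% lower. Over 32 tested genes that glucocorticoids induce across many tissues, 6 were called higher (HIF3A, CAVIN2, DDIT4, MT2A, CEBPD and the amine oxidase gene MAOA) and 2 lower (SGK1 and PIK3R1, a regulatory subunit of PI3-kinase). Their median was 0.22, and 20 of 32 were above 0. Without DMSO replicate 1 and without Dex replicate 2, 5 were higher and 1 lower. FURIN, a protease that matures secreted proteins (chromosome 15, 90872878 to 90883458, plus strand), fell from 114, 86.8 and 93.4 CPM with DMSO to 61.3, 46 and 48.4 with Dex (−0.93 ± 0.14, 0.000745). Of 16 tested genes of the receptor, its chaperones and steroid activation, NCOA1, a coactivator of nuclear receptors, was the 1 called (−0.85 ± 0.20, 0.0271). The NCOA1 call was lost without any 1 DMSO library or Dex replicate 2 or 3. It was also lost with the length trend removed (edgeR adjusted p = 0.0698).

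Most fatty acid and triglyceride synthesis genes had lower levels with Dex than with DMSO, and 5 passed the test. ACSL3, which activates fatty acids (chromosome 2, 222861036 to 222944638, plus strand), had 572, 534 and 661 CPM with DMSO and 409, 365 and 362 with Dex (log2 −0.64 ± 0.11, edgeR adjusted p = 0.00324). FASN, fatty acid synthase, had 1776, 1139 and 1277 CPM with DMSO and 934, 899 and 916 with Dex, and its regulator SREBF1 had 146, 86.1 and 104 CPM with DMSO and 69.9, 73.6 and 69.5 with Dex. In both, DMSO replicate 1 was well above the other 5 libraries. Both calls were lost without it, and also without DMSO replicate 3 or any 1 Dex library. Of 26 tested members 0 were called higher and 5 lower (ACSL3, ACACA, SREBF1, FASN and ELOVL5), against 1.22% and 0.835% of all tested genes. Only ELOVL1 and TM7SF2 were above 0, and the list median was −0.29. At an unadjusted edgeR p under 0.05 there were 0 higher and 17 lower, against 1357 and 1326 of all 13166 genes. DESeq2 called 0 and 8. The list had a median of −0.25 without DMSO replicate 1 and −0.22 with the length trend removed, and 1 and 3 members were then called lower. In DexKLA versus KLA its median was 0.10, and 0 were called by edgeR and 0 by DESeq2. At an unadjusted edgeR p under 0.05, 2 were higher and 3 lower there, against 808 and 577 of all 13166 genes.

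Cholesterol synthesis and uptake genes had 0 of 27 called, with a median of 0.01, 1 higher and 1 lower at an unadjusted edgeR p under 0.05, and 0 by DESeq2. Among all 13166 genes 2.05% were called, and 1357 were higher and 1326 lower at that unadjusted p. The unfolded protein and integrated stress response (28 genes) and the cell cycle (38 genes) also had 0 called by edgeR or DESeq2, with 1 and 5 genes at an unadjusted p under 0.05. Among 25 interferon and MHC class I genes edgeR called 0 and DESeq2 called 1, and 2 passed an unadjusted p under 0.05. Of 8 tested histone genes 0 were called by edgeR or DESeq2, and 1 passed an unadjusted p under 0.05. NRF2 antioxidant targets had 1 of 24 called, AKR1C1 (lower), with a median of −0.14. Of 27 clock genes and Krüppel-like factors 1 was called, CRY2, a clock repressor (log2 0.58 ± 0.15), which lost its call without any 1 of 7 libraries. Of 20 genes of extracellular matrix and caveolae, MATN3 and CAVIN2 rose and THBS1, thrombospondin, fell (−0.95 ± 0.19). The THBS1 call was lost without DMSO replicate 1 or Dex replicate 2. Among 26 genes of fatty acid oxidation, ACAA2, an enzyme of the last mitochondrial step, rose (log2 0.53 ± 0.11). The ACAA2 call was lost without any 1 DMSO library or Dex replicate 2 or 3.

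**Figure D3:**
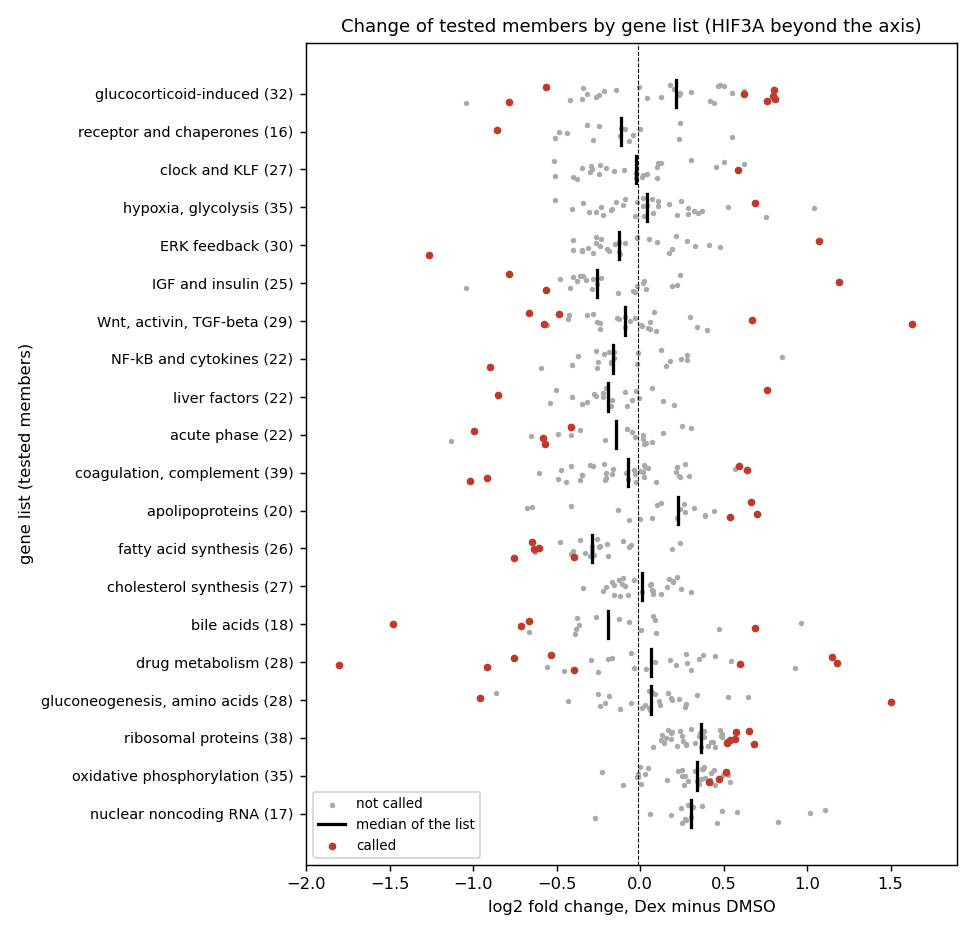
Log2 fold change of Dex minus DMSO for each tested member of 20 gene lists, with the number tested in parentheses. Red points were called, grey points were not, black bars are list medians, the dashed line is the median of all genes (−0.01), and HIF3A lies beyond the axis. Fatty acid synthesis sits left of the line, and ribosomal proteins, oxidative phosphorylation and nuclear noncoding RNA sit right of it.

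Short transcripts as a class were higher with Dex and long ones lower. In 10 bins of tested genes by transcript length, the median log2 change ran from 0.25 in the shortest bin (median length 849 bases) to −0.23 in the longest (8945 bases). Change and length had a Spearman's rho of −0.45 over genes (genes are not replicates). In DexKLA versus KLA it was 0.49, the opposite sign. The genes called higher had a median length of 1548.5 bases, those called lower 4877.5 and all tested genes 3130. Ribosomal protein genes (median length 1040.5 bases) were above 0 in 38 of 38 cases with Dex, 6 of them called, with a median of 0.36, and they summed to 29772 to 30258 CPM in the DMSO libraries and 33366 to 38285 in the Dex libraries, highest in Dex replicate 2. Subunits of oxidative phosphorylation had 3 of 35 called higher and a median of 0.34, and 17 nuclear and structural noncoding RNAs, with 0 called by edgeR or DESeq2 and 10 at an unadjusted p under 0.05, had a median of 0.31. Among all 13166 genes 1.22% were called higher, and 1357 were higher and 1326 lower at an unadjusted edgeR p under 0.05.

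With each library's smooth trend on length removed, the medians of ribosomal proteins and oxidative phosphorylation fell to 0.12 and 0.10, and 187 genes were called, 103 higher and 84 lower. Of the 160 genes first called higher 80 were still called that way, and 61 of the 110 lower ones. Among the 39 genes called without each library in turn, 26 of 29 and 10 of 10 were. The 3 that were not are LINC02482, MT2A and LGALS1. Dex replicate 2 carried the strongest length trend of the 6 libraries (rho −0.53 between length and its deviation from the mean of all 12, against 0.14 and −0.15 in Dex replicates 1 and 3 and 0.19 to 0.40 with DMSO). The part of RNA quality or library preparation in these values was not tested.

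**Figure D4:**
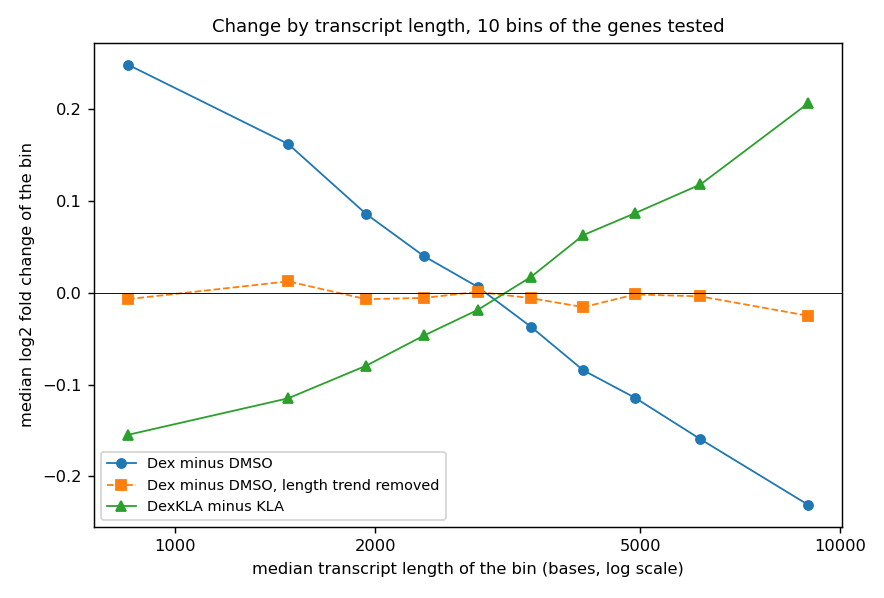
Median log2 fold change in 10 bins of tested genes ordered by transcript length (x axis, bases, log scale). Circles are Dex minus DMSO, squares the same with the length trend removed, and triangles DexKLA minus KLA. The circles go from 0.25 to −0.23 and the triangles from −0.15 to 0.21.

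LINC02482 (chromosome 4, 6670728 to 6673881, minus strand) had 4.79, 4.31 and 4.37 CPM with DMSO and 11.6, 9.58 and 9.24 with Dex (log2 1.16 ± 0.23, edgeR adjusted p = 0.00844), and was −0.08 ± 0.17 in DexKLA versus KLA. PART1 (chromosome 5, 60487932 to 60491265, plus strand), which lies within PDE4D on the opposite strand, had 11.3, 15.4 and 15.3 CPM with DMSO and 24.7, 32.2 and 29.5 with Dex (1.05 ± 0.18, 0.00336). Both are noncoding RNAs, and their groups did not overlap, as in 269 of the 270 called genes.

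The naming rule also took in genes by the size of their change. PDCD4-AS1, an antisense RNA of a tumour suppressor gene, had 3.94, 2.33 and 1.09 CPM with DMSO and 8.59, 5.39 and 7.26 with Dex (log2 1.49 ± 0.33, edgeR adjusted p = 0.0239). ATP2B2, a calcium pump of the plasma membrane, fell from 26.5, 12.6 and 17.5 CPM with DMSO to 9.7, 5.1 and 8.36 with Dex (−1.39 ± 0.33, 0.0271), and CDH1, the adhesion protein E-cadherin, from 31, 14.7 and 20.7 to 12.5, 8.26 and 11.2 (−1.10 ± 0.24, 0.0197). In both, DMSO replicate 1 was the highest library. STS, steroid sulfatase, fell from 6.76, 7.71 and 5.24 CPM with DMSO to 3.05, 2.98 and 3.96 with Dex (−1.03 ± 0.25, 0.0353) and MCC, a colorectal tumour suppressor gene, from 6.76, 5.02 and 4.8 to 2.22, 2.52 and 2.64 (−1.12 ± 0.29, 0.0476). None of these 5 was called without each library in turn.

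The same genes were then read in DexKLA versus KLA, 6 libraries that share none with Dex versus DMSO apart from the common estimate of spread. There 86 genes (0.653%) were called, 58 higher (0.441%) and 28 lower (0.213%). At an unadjusted edgeR p under 0.05, 808 genes were higher and 577 lower there. Of all 13166 genes, 6661 were above 0 in that comparison. Without DexKLA replicates 2 and 3 in turn, 52 and 56 were called. Of the 29 higher genes among the 39, 26 had the same sign and 15 were called higher, with a median log2 of 0.72 against 1.13 in Dex versus DMSO. The 15 included HIF3A (5.59 ± 0.33), HOMER2 (2.44 ± 0.14), DKK4 (1.45 ± 0.20), PGC (1.33 ± 0.15), GNMT (1.30 ± 0.19), NRBP2 (1.21 ± 0.16), CAVIN2 (1.16 ± 0.12), PTGDR2 (1.15 ± 0.15) and MATN3 (1.14 ± 0.11). At the other end, LINC02482, LGALS1 and CLIC1 were below 0, and DDIT4 (0.05 ± 0.14) and SUCLG1 (0.07 ± 0.11) were near 0. Of the 10 lower genes 9 had the same sign and 1, AKR1C1 (−1.09 ± 0.12, edgeR adjusted p = 1.04e-05), was called, with a median of −0.20 against −0.91. FURIN (−0.53 ± 0.13, 0.0734) and CEBPA (−0.47 ± 0.12, 0.0774) missed the threshold.

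Over all 160 genes called higher with Dex alone, 79 had the same sign in DexKLA versus KLA and 30 were called there, and of the 110 lower ones 62 had the same sign and 7 were called. The median log2 change there was 0.00 for the former and −0.04 for the latter, against 0.62 and −0.64 in Dex versus DMSO. Among all 13166 genes 6661 were above 0 in DexKLA versus KLA, and 0.441% were called higher and 0.213% lower. Change and transcript length had a Spearman's rho of 0.49 there, against −0.45 in Dex versus DMSO. The part of length in these medians was not tested. The 3 genes of the FXYD run stood at 1.51 ± 0.32 for FXYD3 (edgeR adjusted p = 0.025), 1.17 ± 0.26 for LGI4 (0.0334) and 0.86 ± 0.21 for FXYD1 (0.0611), the first and second of these called. The ribosomal proteins had a median of −0.18 with 0 of 38 called by edgeR or DESeq2, and 1 lower at an unadjusted p under 0.05.

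**Figure D5:**
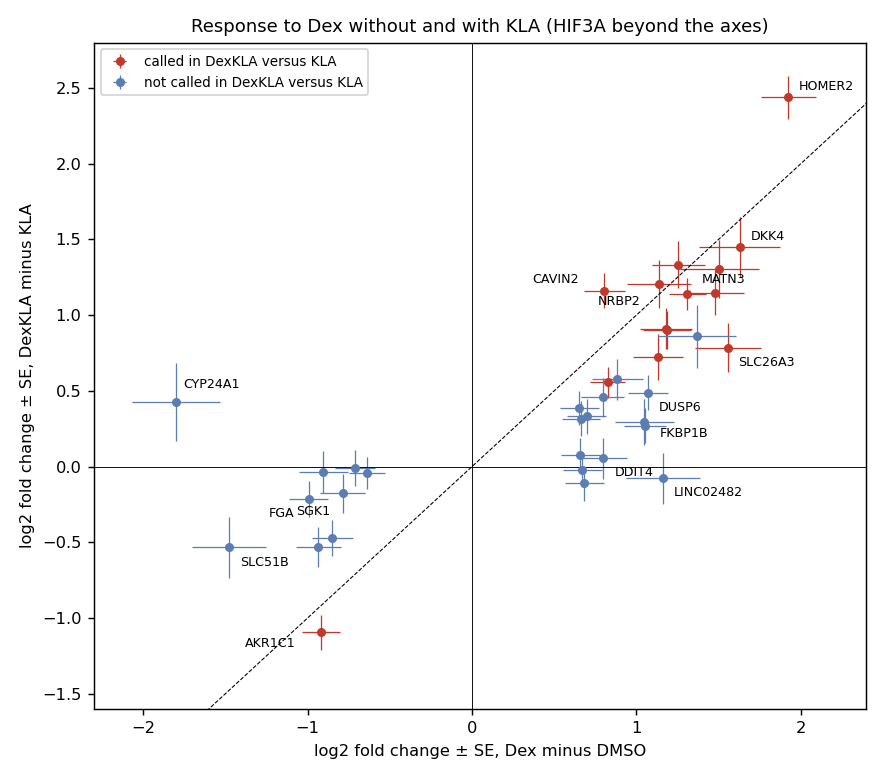
Log2 fold change with standard error of 37 genes in Dex minus DMSO (x axis) and DexKLA minus KLA (y axis). Red points were called in DexKLA versus KLA and blue points were not, the dashed line marks equal change, LOC285847 is left out and HIF3A (5.10 and 5.59) lies beyond the axes. HOMER2 and DKK4 are far up in both, AKR1C1 is down in both, and CYP24A1 is down on the x axis alone.

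The difference between the 2 responses was tested as an interaction. It was called for 5 of 13166 genes (0.038%), while 2922 passed an unadjusted p under 0.05 and DESeq2 called 705. CYP24A1 was the 1 named gene among the 5. Its level was 9.87, 11.3 and 6.31 CPM with KLA and 12.8, 10.2 and 13.2 with DexKLA, so that the KLA libraries lacked the high level of DMSO replicates 1 and 3 (interaction 2.23 ± 0.37 on the log2 scale, edgeR adjusted p = 0.0449). No interaction was called by edgeR without DMSO replicate 1, Dex replicates 2 or 3, or DexKLA replicates 2 or 3, while 434, 418 and 676 were without Dex replicate 1, KLA replicate 2 and DexKLA replicate 1. For the other 38 genes edgeR did not call a difference between the responses to Dex without and with KLA. Some lay just above the threshold at an edgeR adjusted p = 0.0544, among them LINC02482 (−1.24 ± 0.28), FKBP1B (−0.78 ± 0.17), FGA (0.78 ± 0.17) and OSMR (0.87 ± 0.20). Others lay far above it, such as HIF3A (0.49 ± 0.79, edgeR adjusted p = 0.806).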

How the data were processed

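RNA-seq of 12 HepG2 libraries was used, 3 per group. The authors deposited 1 table of estimated counts per RefSeq transcript on hg38, in steps of 0.5 and not normalized, per the file headers and values. Trimmomatic, BWA 0.7.17 and HOMER 4.10 are listed, without roles, per the submitters' processing notes. Library strand and how shared reads were split are not given in the sources used here. Counts were rounded, rows without a symbol (1.71 to 2.55% of a library) were left out, and the transcript with the highest total stood for each of 28256 symbols.

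Genes kept by filterByExpr (minimum count 10) entered edgeR's quasi-likelihood test (edgeR 4.0.16, R 4.3.3), with TMM factors, 1 mean per group and 8 residual degrees of freedom. Alternatives used DESeq2 1.42.0, limma 3.58.1 (voom), other scalings and filters, the longest transcript, thinned libraries (3317740 counts), a removed length trend (lowess span 0.3), a replicate block, the 6 libraries of each comparison alone, and each library left out. Leaving out DMSO replicate 1 and Dex replicate 2 together was chosen after seeing the data. Overlapping genes came from GENCODE release 29.

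The genes named are those called in all 12 fits that leave out 1 library, the 10 largest rises and falls among genes that average a log2 CPM of 1 or more with groups that do not overlap, up to 4 called members per list with the smallest p, and 12 set by name. These genes and lists were chosen with earlier results of these data known. Intervals and floors cover counting error only. A result on the fatty acid oxidation list is not reported here.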

Additional observations from a re-analysis of the deposited data

Results flagged for a closer look

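CYP24A1, which encodes the enzyme that inactivates vitamin D, is taken up here because the test of the difference between its response to Dex without and with KLA passed the threshold with all libraries. The interaction was 2.23 ± 0.37 on the log2 scale (edgeR adjusted p = 0.0449). Dex libraries stood at 11.1, 11.2 and 10.8 CPM against 57.2, 20.5 and 40.8 with DMSO, a change of −1.80 ± 0.27. DexKLA libraries stood at 12.8, 10.2 and 13.2 CPM against 9.87, 11.3 and 6.31 with KLA, a change of 0.43 ± 0.26 (edgeR adjusted p = 0.566). All 3 DMSO libraries lay above all the other 9. This interaction call was lost without DMSO replicate 1, the library at 57.2 CPM, and likewise without Dex replicate 2 or 3 or DexKLA replicate 2 or 3, when edgeR called 0 interactions and 1937 to 2793 genes passed an unadjusted p under 0.05. It was also lost without DMSO replicate 3, the library at 40.8 CPM, when edgeR called 1 interaction, of negative sign.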

How the results depend on the processing

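Of 2097 recomputed changes of single named genes, 1792 kept their direction and side of the threshold, 288 kept their direction but were no longer called, 17 were newly called and 0 reversed. The 270 calls in Dex versus DMSO became 650 with DESeq2, 909 with no filter, 134 with the replicate block, 1299 with the 6 libraries alone and 22 without DMSO replicate 1 and Dex replicate 2 together, and ranged from 57 to 913 with 1 library left out. On library size alone 399 were called, 26.3% of them higher against 59.3%, and the median of all genes moved from −0.01 to −0.11. The 86 calls in DexKLA versus KLA became 204 with no filter and 38 with its 6 libraries alone, and ranged from 52 to 96. The 5 interaction calls became 0 with DESeq2 size factors, voom, the replicate block or both libraries left out, 2 with the length trend removed, 46 with thinned libraries, 230 on library size alone, 705 with DESeq2 and 1040 with no filter, and ranged from 0 to 676. Where a count was 0, 1663 to 3044 genes passed an unadjusted p under 0.05. The cause was not tested. Replicate numbers are shared between groups. Same-numbered deviations of Dex and DMSO correlated at −0.04, 0.04 and 0.01, and 1 of 3 Dex libraries correlated best with its own number. These values show no pairing by number, but 3 libraries a group are too few to exclude it. The depth of 3317740 counts in the shallowest library limits genes at a few counts, such as TSC22D3 and LOC285847.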

Other observations

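Some called genes lay outside the rule by which genes were named and are given here because of their size, after their values were seen. GGT5, a gamma-glutamyltransferase that acts on leukotrienes, rose by 1.96 ± 0.45 on the log2 scale (edgeR adjusted p = 0.0262), and SLC6A14, an amino acid transporter, fell by 1.69 ± 0.41 (0.0341).

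Besides CYP24A1, 4 genes were called in the interaction of Dex and KLA, and their values were also seen first. HIPK1, a nuclear kinase, fell from 40.3, 43.6 and 37.1 CPM with DMSO to 28.8, 22.5 and 26.8 with Dex, and stood at 29.5, 28.0 and 22.2 with KLA and 33.3, 35.3 and 39.9 with DexKLA. MYCBP2, a ubiquitin ligase, and PRKAR1A, a regulatory subunit of protein kinase A, had the same pattern, with interactions of 1.21 ± 0.22 and 0.82 ± 0.15. RPPH1, the RNA of ribonuclease P, went the other way, with −2.66 ± 0.48. Its level was low, at 1.41, 1.44 and 4.58 CPM with DMSO and 7.48, 4.01 and 5.06 with Dex. It stood at 6.73, 6.67 and 5.25 CPM with KLA and 2.06, 2.55 and 1.66 with DexKLA. Each of the 4 interactions had an edgeR adjusted p = 0.0449. In DexKLA versus KLA, HIPK1, MYCBP2 and PRKAR1A were not called (edgeR adjusted p = 0.169, 0.0773 and 0.452), and RPPH1 was called lower (0.00679). RPPH1 was not called in Dex versus DMSO (edgeR adjusted p = 0.127). Without DMSO replicate 1, Dex replicate 2 or 3, or DexKLA replicate 2 or 3, edgeR called 0 interactions. Then 1937 to 2793 genes passed an unadjusted p under 0.05. With the length trend removed 2 interactions were called.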
